A study of Mus musculus with 73 samples.

Results

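Cytosolic ribosomal protein genes encode the proteins of the large and small subunits of the ribosome that translates messenger RNA in the cytoplasm. Members were chosen by symbol and by mean count, as rows of the RNA table whose symbol has the Rpl or Rps form (with Rpsa, Rplp0, Rplp1 and Rplp2 added), without pseudogenes marked by the suffix -ps, and with a mean of at least 20 counts over the 12 RNA-seq libraries. By this rule 85 of the 37310 rows were members, 50 of the large subunit and 35 of the small subunit. They lie on 19 chromosomes, with 4 on the X chromosome and 14 on chromosome 7. Rpl3l, with a mean of 29 counts, was the lowest inside the rule, and Rps12l1, with a mean of 5.67 counts, was the only symbol match outside it. All 85 passed the filter on low counts.

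A cell makes the ribosomal proteins in matched amounts, because each ribosome holds a fixed set of them together with the ribosomal RNAs. Their messages are among the most abundant of a growing cell, and most begin with a run of pyrimidines at the 5′ end, the 5′ TOP (terminal oligopyrimidine) motif, through which mTOR signalling controls their translation. A few members have paralogs with restricted expression, such as testis or muscle forms, which can take the place of the common protein in the ribosome.

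The libraries came from E14Tg2a, a male (XY) embryonic stem (ES) cell line of strain 129/Ola, sampled undifferentiated, and from clones of it edited in the X-inactivation centre (Xic), the X-linked region that holds the silencing RNA gene Xist and its antisense gene Tsix. The 40kb [Tsix-Xist] allele had 4 libraries (clones 1 and 2 with 2 replicates each) and was set against 2 wild-type libraries labelled as its own. The 70kb [Xite-Jpx] allele likewise had 4 libraries (clones 1 and 2 with 2 replicates each), set against 2 other wild-type libraries. Each allele is thus known from 2 clones of 1 cell line. Nothing in the labels says that replicates were separate cultures, so p-values measure the spread between libraries, which may in part be technical.

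Library totals ran between 34514493 and 46605508 counts, so a 95% Wilson interval of the members' share of a library was at most 0.0095 percentage points to either side, for counting error only. CPM levels are counts put on 1 library size with TMM factors, which bring most genes to a common level. Genes were tested with edgeR's quasi-likelihood test over 16636 genes with Benjamini-Hochberg adjustment, and a gene is called at an adjusted p under 0.05. None of 10 ES cell markers was at 0 in any library. Replicate 1 of 40kb clone 1 stood apart in its mitochondrially encoded share, 3.98% of counts against 1.86% to 2.48% in the other 11 libraries.

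The summed output of the 85 genes was highest in clone 1 of the 40kb allele. Their share of all counts was 11.95% and 10.1% in replicates 1 and 2 of 40kb clone 1 and 8.68% and 9.39% in those of clone 2, against 8.88% and 8.43% in wild-type replicates 1 and 2 of that set. Both clone 1 libraries and 1 clone 2 library thus lay above both wild-type libraries, while replicate 1 of clone 2 lay between them. This overlap depended on the scaling. With totals multiplied by the TMM factors, the shares were 12.72% and 10.73% in clone 1 and 8.927% and 9.415% in clone 2. Those of wild type were then 8.471% and 8.093%, below all 4. The mean share of all counts was 10.0 ± 1.41% (SD, n = 4) in 40kb libraries and 8.66 ± 0.319% (SD, n = 2) in wild type (exact permutation test, two-sided, p = 0.267, with 15 possible splits). With 15 splits no p below 0.0667 is possible, and replicates of a clone are taken as separate units. The difference of 1.38 percentage points was 0.745 without replicate 1 of 40kb clone 1, and at most 1.835 with another library left out. On the TMM-scaled totals the difference was 2.17 percentage points (exact permutation test, two-sided, p = 0.133). In the 70kb set the shares were 8.72% and 9.33% for 70kb clone 1 and 8.52% and 8.43% for 70kb clone 2, against 8.76% and 8.52% in wild type, and the groups overlapped. In bulk RNA, more of these messages per cell and a different mix of cells cannot be told apart.

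**Figure D1:**
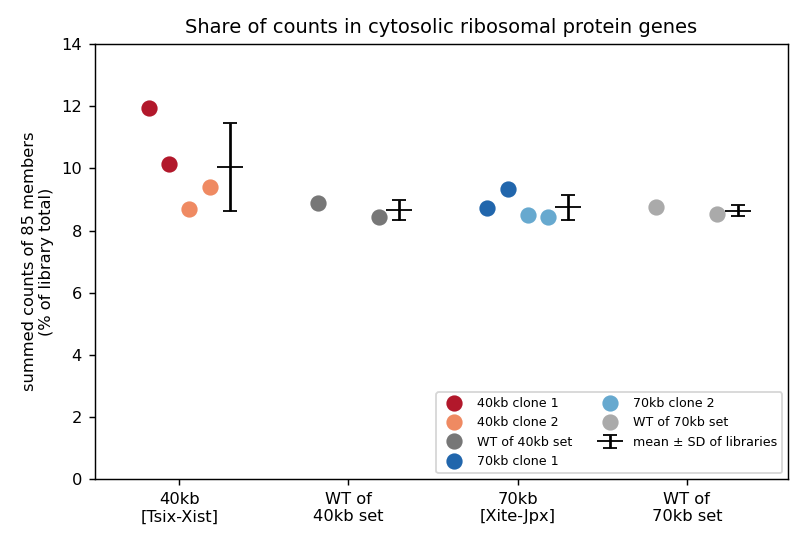
Summed counts of the 85 genes as a percent of the library total (vertical axis, from 0) for each library of the 4 groups; black bars are mean ± SD of the libraries. Replicates 1 and 2 of 40kb clone 1, at 11.95% and 10.1%, are above all other libraries, which lie between 8.43% and 9.39%.

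Both subunits kept their balance in every library. The ratio of large-subunit to small-subunit counts was 1.24 to 1.26 in 40kb libraries and 1.24 to 1.25 in their wild type, and 1.23 to 1.27 in 70kb libraries against 1.22 to 1.24 in their wild type.

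In the 40kb comparison, all 85 genes had log2 fold changes above 0, against 56.2% of all genes tested, but the differences were small and only Rpl3l was called (0.763% of all genes were called higher, 6.43% in either direction). The median log2 fold change was 0.35 over the 85 genes and 0.06 over all genes, and 81 of the 85 values lay between 0.2 and 0.5. The median was 0.36 over the 50 large-subunit genes and 0.33 over the 35 small-subunit genes. For 59 of the 85, all 4 allele libraries lay above both wild-type libraries, which held for 16.4% of all genes. An unadjusted p under 0.05 was reached by 45 of the 85 and by 23.5% of all genes, a count that depended on the libraries and the fit. It was 20 without replicate 2 of clone 1 (21.6% of all genes), 13 with the set fitted alone (20.4%) and 16 with library totals (22.4%). It rose to 65 without replicate 1 of clone 2 (23.3%) and to 53 without replicate 2 of clone 2 (25.3%). With all 4 wild-type libraries it was 61 (25.1%). Without replicate 1 of 40kb clone 1 it was 30 (24.1%), the median of the 85 was 0.228 and 84 of 85 values were above 0. Without wild-type replicate 1 or 2 no replicate was left in that group, and the medians were 0.377 and 0.322. Medians with another library left out ran up to 0.423. DESeq2 called 5 of the 85 (2.64% of all genes were called higher in DESeq2): Rpl3l, Rpl39l, Rps29, Rpl36 and Rpl8, the last 3 named because of this count.

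The scaling sets part of this size. With library totals alone the median of the 85 was 0.225 and that of all genes -0.05, a shift of all genes by more than 0.1, and no member was called. All 85 values still lay above 0 and above that median.

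Rpl13a, a large-subunit protein, had the highest fold change among the genes with no paralog name. It had 3374 and 2884 CPM in 40kb clone 1 and 2056 and 2292 CPM in 40kb clone 2, against 2055 and 1709 CPM in wild type. Clone 1 lay far above wild type, whereas replicate 1 of clone 2 was level with the higher wild-type library. The log2 fold change was 0.495 (SE 0.19, adjusted p = 0.134, edgeR).

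The abundant small-subunit protein Rps2, at the channel where the message enters, had 2512 and 2740 CPM in 40kb clone 1 and 2403 and 2561 CPM in 40kb clone 2, against 2146 and 2195 CPM in wild type. Every 40kb library exceeded both wild-type libraries, and clones 1 and 2 overlapped. Its log2 fold change was 0.235 (SE 0.13, adjusted p = 0.285, edgeR), which is not a call. Rpl4, which lines the tunnel of the growing peptide, had 4820 and 4152 CPM in 40kb clone 1 and 3245 and 3321 CPM in 40kb clone 2, against 3205 and 3125 CPM in wild type. Clone 2 stood only just above wild type for this gene. Rpsa, a small-subunit protein first described as a laminin receptor, had 4171 and 3526 CPM in 40kb clone 1 and 2717 and 2907 CPM in 40kb clone 2, against 2774 and 2585 CPM in wild type, so clone 2 overlapped wild type.

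The stalk proteins Rplp0, Rplp1 and Rplp2, which form the arm of the large subunit that binds translation factors, showed how unequal single genes were. Rplp0 averaged 1872 ± 100.9 CPM (SD, n = 4) in 40kb libraries and 1612 ± 62.1 CPM (SD, n = 2) in wild type. Rplp1 averaged 1962 ± 233 CPM in 40kb libraries and 1489 ± 67.8 CPM in wild type. The groups did not overlap for either gene, and neither fold change passed the test. Rplp2 had 936 and 1408 CPM in 40kb clone 1 and 1201 and 1260 CPM in 40kb clone 2, against 1060 and 934 CPM in wild type. Its replicate 1 of clone 1 fell among the wild-type libraries, the opposite of most members. The lowest fold changes were those of Rps27l (0.15), Rpl10 (0.20), Rplp0 (0.22) and Rpl15 (0.23), all log2 and none called.

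The 4 X-linked members, which share a chromosome with the edited region, had values within the range of the autosomal members. Xist, the RNA that silences the X chromosome it is made from, had 82 and 42.4 CPM in 40kb clone 1 and 14.7 and 20.4 CPM in 40kb clone 2, against 0.801 and 0.734 CPM in wild type. The X-linked members had a median log2 fold change of 0.32 in that comparison and the 81 autosomal members 0.35, a difference given without a test. Rps4x, a small-subunit gene separated from Xist by 18 protein-coding genes in the order of the RefSeq annotation, had 3224 and 2438 CPM in 40kb clone 1 and 1990 and 2121 CPM in 40kb clone 2, against 1977 and 1989 CPM in wild type. All 4 allele libraries exceeded wild type, replicate 1 of clone 2 by 1 CPM. Its log2 fold change was 0.30 (SE 0.17, adjusted p = 0.307, edgeR). Rpl36a (0.39), Rpl39 (0.35) and Rpl10 (0.20) had log2 fold changes of similar size, and none of them was called.

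Paralogs gave the 3 highest fold changes among the 85. Rpl3l, a muscle form of the large-subunit protein Rpl3, had 52 and 34 counts in 40kb clone 1 and 52 and 37 counts in clone 2, against 22 and 17 counts in wild type. In CPM that was 1.19 and 0.922 in 40kb clone 1 and 1.29 and 1.03 in clone 2, against 0.504 and 0.430 in wild type. Both clones were alike and the groups did not overlap. Rpl3l was 2.37-fold higher in 40kb libraries by mean CPM, and its log2 fold change was 1.24 (SE 0.33, adjusted p = 0.0441, edgeR). The call is close to its threshold: it was lost with library totals (adjusted p = 0.0565), with no filter (0.0744), in each clone alone (0.0525 in clone 1, 0.0766 in clone 2) and with the 70kb set's wild type as reference (adjusted p = 0.37, log2 fold change 0.72), all in edgeR. It was also lost with a B code in the sample names, whose meaning is not given, as a block (adjusted p = 0.127, log2 fold change 1.06, edgeR). The same held with any 40kb library left out (adjusted p between 0.0559 and 0.0875, edgeR). With any 1 of the 6 libraries left out the log2 fold change was 1.131 to 1.358.

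Rpl39l, a paralog of the exit-tunnel protein Rpl39 best known from testis, had 46.4 and 17.1 CPM in 40kb clone 1 and 25.7 and 18.4 CPM in 40kb clone 2, against 11.7 and 11.4 CPM in wild type. The 4 allele libraries all exceeded wild type, but replicate 1 of clone 1 was far above the rest. The log2 fold change was 1.22 (SE 0.36, adjusted p = 0.0657, edgeR), and DESeq2 called it (adjusted p = 0.0119). Rpl10l, an autosomal testis paralog of the X-linked Rpl10, had 116 and 40.1 CPM in 40kb clone 1 and 33.5 and 16.2 CPM in 40kb clone 2, against 18.1 and 14.4 CPM in wild type. Its replicate 2 of clone 2 lay between the wild-type libraries, so the groups overlapped. The log2 fold change was the highest of the 85 at 1.66, with the largest error (SE 0.62, adjusted p = 0.132, edgeR). That rank rested on 1 library: without replicate 1 of clone 1 the value was 0.871, below that of Rpl3l (1.195).

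The other paralogs were closer to the rest. Rpl22l1, a paralog of Rpl22, had 434 CPM in replicate 1 of 40kb clone 1 and 156 to 191 CPM in the other 40kb libraries, against 184 and 193 CPM in wild type. A single library was high there, and the log2 fold change, 0.36 with SE 0.32 (adjusted p = 0.526, edgeR), was -0.09 without it. Rps27l, a paralog of Rps27 known as a p53 target, averaged 213 ± 31.9 CPM (SD, n = 4) in 40kb libraries and 192 ± 18.5 CPM (SD, n = 2) in wild type, and the groups overlapped. Rpl7l1 (0.34), Rps4l (0.47) and Rpl6l (0.40) had log2 fold changes above 0 with no overlap between groups and no call. In 6 of 8 pairs the paralog had a higher fold change than the common gene: for Rpl10l and Rpl10 the log2 values were 1.66 and 0.20, for Rpl3l and Rpl3 1.24 and 0.28, and for Rpl39l and Rpl39 1.22 and 0.35. The exceptions were Rpl22l1 beside Rpl22 and Rps27l beside Rps27. For some pairs the order depended on the clone. In 40kb clone 1 alone, Rpl7l1 (0.404), Rps4l (0.445) and Rpl6l (0.469) lay below Rpl7 (0.482), Rps4x (0.513) and Rpl6 (0.488). Rpl22l1 (0.723) lay above Rpl22 (0.63) in that clone. RefSeq annotates Rpl6l, Rps3a2, Rps3a3 and Rps4l as pseudogenes, and the treatment of reads that match several gene copies is not given in the sources used, so values of members with near-identical copies are uncertain.

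**Figure D2:**
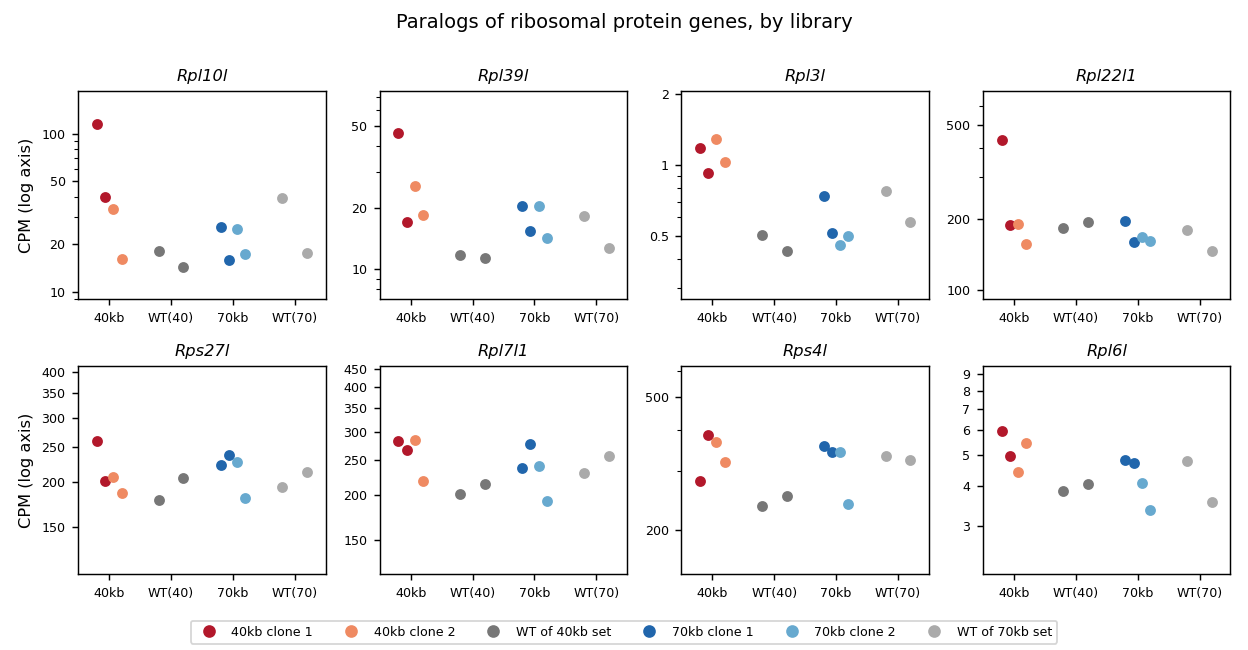
Level of each of the 8 paralogs (CPM, log axis) in the 12 libraries, by group and coloured by clone. Rpl10l, Rpl39l and Rpl22l1 peak in replicate 1 of 40kb clone 1 (116, 46.4 and 434 CPM), whereas Rpl3l is at 0.922 to 1.29 CPM in all 4 of the 40kb libraries and at 0.504 and 0.430 CPM in their wild type.

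Taken clone by clone, the 40kb allele gave unequal values. In clone 1, 58 of 85 genes were called higher (4.72% of all genes were called higher), with a median log2 fold change of 0.515 and all 85 values above 0 (52.8% of all genes). In clone 2, edgeR and DESeq2 each called 0 of 85 (0.613% of all genes were called higher in edgeR and 1.68% in DESeq2), the median was 0.16, 81 of 85 values were above 0 (53.4% of all genes), and 5 genes (18.8% of all genes) reached an unadjusted p under 0.05. Among the 58 were Rpl13a (log2 fold change 0.73, SE 0.14, adjusted p = 0.0106, edgeR), Rpl10l (2.26, adjusted p = 0.0202) and the X-linked Rps4x, Rpl36a and Rpl39 (0.51 to 0.61), but not Rpl10 (0.30, adjusted p = 0.125). Called genes came from both subunits, 34 of 50 large and 24 of 35 small. Rpl3l was the highest in clone 2, at 1.31, and Rpl22l1, Rps15a, Rpl7 and Rpl26 were its only values below 0 (-0.12 to -0.02, the last 3 named because of this count).

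The difference between clones 1 and 2 of the 40kb allele had a median log2 value of 0.35 and was above 0 for 82 of 85 genes (50.1% of all genes), the exceptions being Rpl3l, Rplp2 and Rps4l. For 74 of the 85, both libraries of clone 1 lay above both of clone 2, which held for 21.9% of all genes. In edgeR 0 of 85 were called for that difference (0.0661% of all genes were called), 55 reached an unadjusted p under 0.05 (16.6% of all genes), and DESeq2 called 5 (3.35% of all genes were called in DESeq2). Without replicate 1 of clone 1 the median difference was 0.21.

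**Figure D3:**
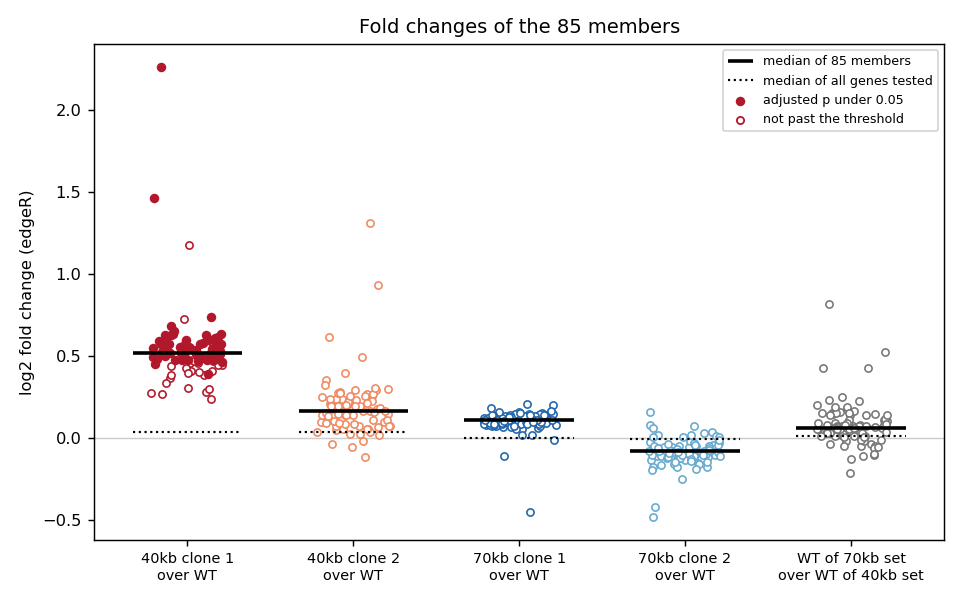
Log2 fold changes (edgeR) of the 85 genes for each clone over its wild type, and for the 70kb set's wild type over that of the 40kb set; filled points passed an adjusted p of 0.05, thick lines are medians of the 85 and dotted lines medians of all genes tested. Filled points appear in 40kb clone 1 alone (58 of 85), and the member medians are 0.515 and 0.16 in 40kb clones 1 and 2, 0.11 and -0.08 in 70kb clones 1 and 2, and 0.06 between the wild types.

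The clone 1 calls depended on the scaling. With library totals 18 were called (2.29% of all genes were called higher). Leaving out a library of clone 1 or of wild type left no replicate in that group, so such calls are not counted here. Medians of the 85 ran between 0.365 and 0.638 over the 4 libraries left out in turn. The lowest was without replicate 1 of clone 1. Replicate 1 of clone 1 exceeded replicate 2 for 76 of 85 genes, with a median log2 ratio of 0.27, and ratios ran between -0.59 (Rplp2) and 1.53 (Rpl10l). Next to Rpl10l, the highest ratios were those of Rpl39l (1.44) and Rpl22l1 (1.21). Rps4l (-0.46) and Rps2 (-0.125) were lower in replicate 1. That library also had the deviating mitochondrial share given above, and the part of this in the result was not tested. With mitochondrially encoded genes left out of the table, 56 of the 85 were called in clone 1 (4.32% of all genes were called higher). That step changes only the scaling and keeps the library itself, so it does not test that part.

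**Figure D4:**
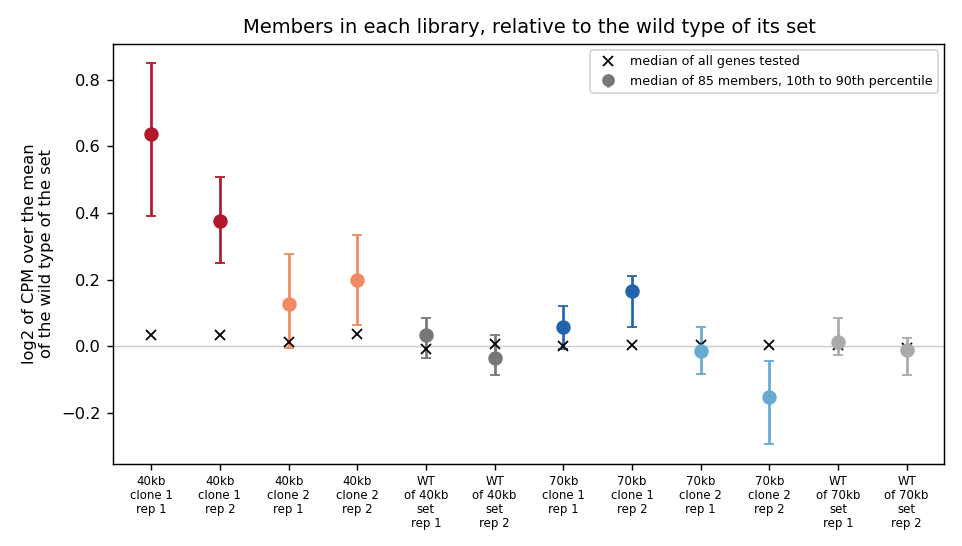
Median log2 of CPM over the mean of the set's wild type, for the 85 genes in each library (points, with bars spanning the 10th to 90th percentile of the genes) and for all genes tested (crosses). Medians are 0.64 and 0.38 in 40kb clone 1, 0.13 and 0.20 in 40kb clone 2, 0.06 and 0.17 in 70kb clone 1, and -0.01 and -0.15 in 70kb clone 2, while all-gene medians stay within -0.01 and 0.04.

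In the libraries of both alleles the 85 genes moved in part together, more than in the wild-type pairs. The allele groups span 2 clones each, so their spread includes differences between clones, which wild type cannot have. Between wild-type replicates 1 and 2 the median log2 ratio of the 85 was 0.071 in the 40kb set and 0.024 in the 70kb set. The median SD of a member's log2 CPM was 0.233 in 40kb libraries and 0.056 in their wild type. It was 0.145 in 70kb libraries and 0.03 in their wild type. Over 16369 genes with counts in every library these SDs were 0.316, 0.129, 0.244 and 0.186, in that order. Once the median of the 85 was taken out of each library, the median SD was 0.095 in 40kb libraries and 0.054 in their wild type. It was then 0.061 in 70kb libraries and 0.034 in their wild type, so wild-type values hardly changed. Rpl10l was the most variable in each of the 4 groups, with an SD of 1.17 in the 40kb libraries. Its levels in the 70kb set were 25.8, 16.1, 25.1 and 17.5 CPM in 70kb libraries and 39.5 and 17.7 CPM in their wild type, so even wild-type libraries differed widely for this gene.

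In the 70kb comparison no difference from wild type was detected. Of the 85, edgeR and DESeq2 each called 0 (edgeR called 0 of all genes, 0%, in either direction, and DESeq2 0.018%), and 0 reached an unadjusted p under 0.05, against 0.601% of all genes. The median log2 fold change was 0.02 (all genes, 0.005), with 59 of 85 values above 0 (51.4% of all genes), and values ran between -0.44 (Rpl10l) and 0.18 (Rpl39l). Rps4x averaged 1949 ± 120 CPM (SD, n = 4) in 70kb libraries and 1902 ± 19.5 CPM (SD, n = 2) in wild type. Rpl3l averaged 0.553 ± 0.1245 CPM in 70kb libraries and 0.672 ± 0.142 CPM in wild type, and the groups overlapped for both genes. Clones differed in sign: 82 of 85 values were above 0 in 70kb clone 1 (49.2% of all genes), with a median of 0.11, and 12 of 85 in clone 2 (48.5% of all genes), with a median of -0.08. In edgeR 0 of 85 were called in 70kb clone 1 (0.00601% of all genes) and 0 in clone 2 (0%), with 0 at an unadjusted p under 0.05 in each. In 1 of 85, Rpl26, all 4 allele libraries exceeded both wild-type libraries, against 2.4% of all genes.

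The difference between the effects of the 40kb and 70kb alleles was above 0 for all 85 genes (55.3% of all genes), with a median log2 value of 0.34 (all genes, 0.06). Without replicate 1 of 40kb clone 1 the median was 0.197, and 81 of 85 values were above 0. Tested as an interaction, 0 of 85 were called in edgeR or DESeq2 (0% of all genes in edgeR, 2.4% in DESeq2), and 5 reached an unadjusted p under 0.05: Rpl10l, Rpl3l, Rplp1, Rpl36 and Rps29, against 12.8% of all genes. For Rpl3l the difference was 1.53 (SE 0.45, adjusted p = 0.202, edgeR). Between wild types, the libraries of the 70kb set against those of the 40kb set had a median log2 difference of 0.06 over the 85 genes with 69 values above 0 (51.1% of all genes) and 0 called (edgeR and DESeq2, 0% of all genes in each). Only Rps4l reached an unadjusted p under 0.05 there (2.37% of all genes did), with a log2 difference of 0.43. With the 70kb set's wild type in place of its own, the 40kb median was 0.29, all 85 values were above 0 and 0 were called (0% of all genes).

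Other genes of ribosome production were described in the 40kb comparison by the same counts. Over all genes 56.2% had values above 0 there and 0.763% were called higher. Of 5 cytosolic ribosomal protein genes under other names, 5 had values above 0 and 0 were called. Fau, whose product is cut into a ubiquitin-like protein and a small-subunit protein, averaged 566 ± 41.9 CPM (SD, n = 4) in 40kb libraries and 442 ± 14.6 CPM (SD, n = 2) in wild type, a log2 fold change of 0.36. Rack1, the scaffold protein of the small subunit, had a log2 fold change of 0.28. Mitochondrial ribosomal protein genes, which serve a separate ribosome, had a median of 0.29, with 74 of 76 values above 0 and 1 called, Mrpl2. It averaged 81.2 ± 3.92 CPM (SD, n = 4) in 40kb libraries and 58.9 ± 2.83 CPM (SD, n = 2) in wild type (log2 fold change 0.46, SE 0.13, adjusted p = 0.0486, edgeR), and 11 alternatives other than leaving out a library lost that call. In 40kb clone 1 alone, 15 of the 76 were called higher (4.72% of all genes were).

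Translation factors of the 5′ TOP class had a median of 0.12 with 17 of 18 values above 0 and 0 called. Eef1a1, the elongation factor that brings tRNA to the ribosome, had 16240 and 16440 CPM in 40kb clone 1 and 11730 and 13320 CPM in 40kb clone 2, against 13170 and 12220 CPM in wild type. Clone 1 was high and clone 2 overlapped wild type. Ribosome assembly factors had a median of 0.22 (35 of 36 above 0), RNA polymerase I subunits 0.18 (14 of 15 above 0) and 4 host genes of small nucleolar RNAs 0.47 (4 of 4 above 0), with 0 called in each list. In 40kb clone 1 alone, 3 of the 36 assembly factors and 2 of the 4 host genes were called higher (4.72% of all genes were). Of 21 genes that control ribosome production through Myc or mTOR, 16 had values above 0 and 0 were called. In 40kb clone 1 alone, 0 of the 21 were called higher and 1 lower (10.2% of all genes were called lower). Myc, a transcription factor that raises ribosome production, had 21.3 and 47.9 CPM in 40kb clone 1 and 68.2 and 37.5 CPM in 40kb clone 2, against 34.5 and 32.2 CPM in wild type. Its paralog Mycn had 78.6 and 227 CPM in 40kb clone 1 and 240 and 221 CPM in 40kb clone 2, against 212 and 180 CPM in wild type. Both were lowest in replicate 1 of clone 1, the library with the highest ribosomal protein share. In replicate 2 of that clone, with the next highest share, both exceeded their wild-type libraries. A link to the ribosomal protein values was not tested. Pseudogenes named -ps had a median of 0.445, with 105 of 113 values above 0 and 0 called. Between the wild types (70kb set over 40kb set) 0 were called in these lists (0% of all genes). Medians there were 0.17 for mitochondrial ribosomal proteins (71 of 76 above 0) and 0.156 for assembly factors (36 of 36). RNA polymerase I subunits had 0.16 (13 of 15) and Myc and mTOR genes 0.12 (18 of 21). The 5 genes under other names had 0.197 (4 of 5) and translation factors 0.045 (13 of 18). Host genes had 0.017 (2 of 4) and pseudogenes 0.036 (64 of 113).

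Markers of other cell types moved with the 40kb comparison. Of 14 fibroblast markers tested, 10 were called lower and 0 higher (over all genes 5.67% were called lower and 0.763% higher). Among the 10 was Tagln, which averaged 10.9 ± 11.1 CPM (SD, n = 4) in 40kb libraries and 199 ± 55.3 CPM (SD, n = 2) in wild type. Summed fibroblast markers ranged between 14.03 and 60.15 CPM in 40kb libraries, against 309.5 and 402 CPM in wild type. Col3a1 and Postn were at 0 in replicate 1 of each 40kb clone, Postn in replicate 2 of clone 2 and Dcn in replicate 2 of clone 1, and none of the 14 was at 0 in wild type. Of 9 trophoblast markers tested, 6 were called lower, and their sum ranged between 42.2 and 133 CPM in 40kb libraries, against 520 and 634.5 CPM in wild type. Cdx2 was at 0 in both libraries of 40kb clone 1, and Gata3 in replicate 1 of that clone. Krt8 averaged 11.4 ± 8.25 CPM in 40kb libraries and 243 ± 62.5 CPM in wild type. Among 10 ES cell markers, all above 0, 1 was called higher, Fgf4, and their sum was 7598 and 7419 CPM in 40kb clone 1 and 5841 and 5887 CPM in 40kb clone 2, against 5090 and 4129 CPM in wild type. In the 70kb set the library with the lowest ribosomal protein median, replicate 2 of clone 2, had the highest fibroblast sum, 626 CPM against 58.85 to 236 CPM in the other 70kb libraries and 96.55 and 360 CPM in wild type. The part of these markers in the ribosomal protein values was not tested.

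Start regions of the members were read from RefSeq (build GRCm38.p6), in windows of 300 bases that run from 250 before to 50 after the annotated start. Of the 85 members 61 had a window. The letters of a 5′ TOP motif, a C followed by at least 4 pyrimidines and beginning within 10 bases of the annotated start, were in 27 of the 61 (44.3%), against 25.5% of 11466 tested genes and 23% of all 27025 genes with a window. Annotated starts can be off by some bases, so the count describes these windows. Stretches of 80 bases, 60 before to 20 after the start, are shown for members at the extremes of the 40kb fold changes and for parent genes of paralogs. Capitals mark the TOP letters and, in Rps27l, also the letters CCGGAAG further on. Rpl13a has the highest fold change outside the paralogs, and Rps2 one of the lower values. They lie at chr7:45128726-45128805 (minus strand) and chr17:24720003-24720082 (plus strand).
Rpl13a: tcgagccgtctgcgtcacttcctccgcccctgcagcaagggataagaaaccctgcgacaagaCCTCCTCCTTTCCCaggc
Rps2: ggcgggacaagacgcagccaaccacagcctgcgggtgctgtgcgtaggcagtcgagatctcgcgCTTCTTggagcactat
The tract of Rpl13a has 14 bases and that of Rps2 has 6. Paralogs are shown for contrast: Rpl39l at chr16:10170168-10170247 (plus strand) above Rpl39 at chrX:37085203-37085282 (minus strand), then Rpl10l at chr12:66284382-66284461 (minus strand) above Rpl10 at chrX:74270756-74270835 (plus strand), and Rps27l, the lowest of all members, at chr9:66946026-66946105 (plus strand).
Rpl39l: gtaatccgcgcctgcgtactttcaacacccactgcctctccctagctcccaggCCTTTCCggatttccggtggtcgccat
Rpl39: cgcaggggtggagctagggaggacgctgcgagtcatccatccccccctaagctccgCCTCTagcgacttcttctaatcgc
Rpl10l: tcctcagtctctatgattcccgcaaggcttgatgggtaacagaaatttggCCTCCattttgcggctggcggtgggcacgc
Rpl10: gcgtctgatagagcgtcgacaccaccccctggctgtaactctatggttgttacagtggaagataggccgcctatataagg
Rps27l: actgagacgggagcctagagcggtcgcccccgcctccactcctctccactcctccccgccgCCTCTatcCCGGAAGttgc
Short tracts are thus present near the annotated starts of Rpl39l, Rpl10l and Rps27l as well, and Rpl10 has none within the 10 bases searched. Counted from the annotated start, the tract begins at -7 in Rpl39l, -10 in Rpl10l and 1 in Rps27l. Those of Rpl39l and Rpl10l lie wholly before the annotated start, so outside the message as annotated.

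Within the 300-base windows, on both strands, the ETS letters CCGGAAG were in 39.3% of the 61 members, against 16.8% of tested genes. The YY1 letters ATGGCGG were in 16.4% of members, against 7.74%, and the SP1 letters GGGCGG in 60.7%, against 63.8%. TATAAA was in 9.84% of members, against 7.15%, the E box CACGTG in 8.2%, against 10%, and CCAAT in 29.5%, against 38.6%. A match is a description of letters, not of a bound site. Members with and without these letters had similar 40kb values: the median log2 fold change was 0.35 in the 27 with TOP letters and 0.33 in the 34 without, and 0.34 in the 24 with ETS letters and 0.35 in the 37 without.

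**Figure D5:**
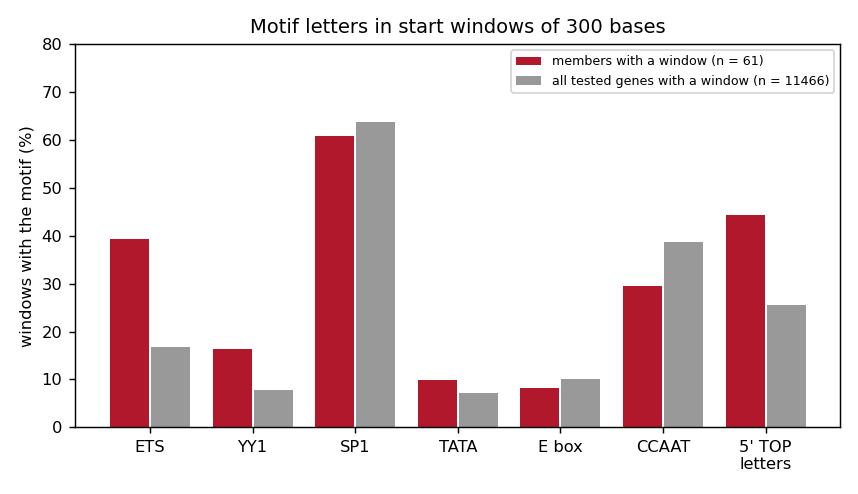
Percent of 300-base start windows that hold each motif's letters, for the 61 members with a window (red) and for all 11466 tested genes with a window (grey). ETS letters (39.3% against 16.8%) and TOP letters (44.3% against 25.5%) are more frequent in members, as are YY1 and TATA letters, while SP1, E box and CCAAT letters are less frequent.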

How the data were processed

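Per the labels' protocols, RNA-seq libraries were stranded and made from polyadenylated RNA. The deposited table holds the authors' whole-number counts per gene. Submitters' processing notes name STAR, edgeR and mm9. How strand and multiply matching reads were treated is not given in the sources used. Symbols came from a table of gene IDs (32620 of 37310 matched). Ribosomal protein genes with no matched symbol, such as Rpl41, were not analysed here, and the other assays were not used here.

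The test was edgeR 4.0.16 (R 4.3.3) with TMM factors, the default filter on low counts and a quasi-likelihood F test, fitted to all 12 libraries by group. Residual degrees of freedom were 8 and the biological coefficient of variation was 23.8%. Clones were fitted likewise by clone. Benjamini-Hochberg adjustment ran over all 16636 genes, and SE stands for the standard error. DESeq2 1.42.0 was the alternative tool. The fit was tested on simulated data.

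Named genes were members called in a comparison of groups, the 4 highest and 4 lowest in the 40kb comparison, the 2 highest and 2 lowest in the 70kb comparison, X-linked members, paralogs by symbol, the 3 highest and 3 lowest mean counts, stalk proteins and Rpsa, up to 3 called genes of each other list, and Myc, Mycn and Eef1a1. Xist, Fau, Rack1 and members named otherwise were chosen after their values were seen. The members, lists and rule were chosen with earlier results of these data known. Replicate numbers paired the libraries of the 70kb set, where deviations of same-numbered libraries correlated at 0.68, 0.27 and 0.21.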

Additional observations from a re-analysis of the deposited data

Results flagged for a closer look

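Replicate 1 of 40kb clone 1 stood apart from the other 3 libraries of its group for Rpl22l1, at 434 CPM, with a gap to its nearest neighbour of 0.874 of the group's range. Replicate 2 of 70kb clone 2 stood apart for Rps4l, at 239 CPM, with a gap of 0.869 of the range. Among the 44 groups of 4 libraries examined in this way, chance would flag about 1 in 20.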

How the results depend on the processing

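Medians of the members kept their direction in the 40kb comparison under all alternatives run, whereas calls did not. Members called there are given with the share of all genes called higher. They numbered 5 with DESeq2 (2.64%) and 2 with the title number as replicate block (1.3%). With clone 1 alone 58 were called (4.72%, median 0.515) and with clone 2 alone 0 (0.613%, median 0.164). They numbered 0 with library totals (0.487%), with the set fitted alone (0.658%) and with a mean of at least 50 counts (0.576%), where Rpl3l was not tested. They were also 0 with counts summed per clone (3 of all genes called) and with the other wild type (0 of all genes). With 1 of the 40kb libraries left out they numbered 0 to 2 (0.163% to 0.957%). Leaving out a wild-type library left no replicate in its group, so such calls are not counted here. In 40kb clone 1 there were 18 with library totals and 0 to 74 with 1 library left out. In clone 2 there was 1 with no filter or with the title number as block. Between clones 1 and 2 there were 5 with DESeq2, 9 with no filter, 1 with the title number as block and 0 to 49 with 1 library left out. The 70kb median turned to -0.042 without replicate 2 of 70kb clone 1, and to -0.003 without wild-type replicate 2 of that set. The replicate block changed no 70kb call. The 40kb title numbers share only a number (correlations 0.05, -0.09 and 0.17). By the B code, correlations were 0.26 and 0.20, and with it as block Rpl3l lost its call (adjusted p = 0.127, edgeR) and Rpl39l was called (0.0479, log2 fold change 0.62).

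Among the named genes followed through the alternatives, signs turned for 7 in comparisons where they were not called. Over all members more signs turned. In the 70kb comparison 59 of 85 values were above 0 in the main fit. That count was 18 without replicate 2 of 70kb clone 1 and 82 without replicate 2 of 70kb clone 2. In 40kb clone 2 it was 81 in the main fit and 65 with library totals. Rpl22l1 in the 40kb comparison was -0.139 with the B code as block, -0.121 in clone 2 and -0.09 to 0.525 with 1 library left out. Mycn there was 0.196, 0.232 and -0.16 to 0.215, and Eef1a1 was -0.019 in clone 2. In the 70kb comparison Rpl10l was 0.378 and Rpl3l 0.237 with the other wild type, and with 1 library left out Rpl10l was -0.903 to 0.254 and Rpl39l -0.062 to 0.468. The allele difference of Rps27l was -0.064 with library totals, -0.076 with the B code as block and -0.063 to 0.158 with 1 library left out. The causes were not tested.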
